A study of Mus musculus with 2 samples.

Results

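The genes described here are 10 members of the fibroblast growth factor (FGF) system, chosen by symbol from the 32285 genes of the deposited tables: the ligand genes Fgf4, Fgf5, Fgf8, Fgf15 and Fgf17, the receptor genes Fgfr1, Fgfr2, Fgfr3 and Fgfr4, and the carrier gene Fgfbp1. All 10 were found in both tables. They were measured in R1 mouse embryonic stem cells, a single established line, by droplet single-cell RNA sequencing with 10x Genomics 3′ version 2 chemistry. There were 2 libraries, 1 per culture condition, each taken after 72 h in N2B27, a serum-free medium. The LB cells received the cytokine LIF and the growth factor BMP4 and were grown on gelatin. The LBPXRS cells received LIF and BMP4 as well, together with 4 added compounds, and were grown on fibronectin. The added compounds were PD0325901, which inhibits the kinase MEK; Xav939, which inhibits tankyrase and so dampens WNT signalling; SB431542, which inhibits activin and NODAL receptors; and a resorcyclic lactone, for which no target is labelled. Substrate and compounds changed together and cannot be told apart, and neither can the 4 compounds from each other. With 1 library per condition there was no replicate, so no p-value is given, and every interval below covers counting error only and not the spread between cultures.

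FGF ligands are secreted proteins that bind receptor tyrosine kinases on the cell surface with the help of heparan sulfate chains. An active receptor passes the signal through adaptor proteins and RAS to the kinases RAF, MEK and ERK. In early mouse development FGF4 is made by pluripotent cells and drives their exit from the naive state through ERK. FGF5 marks the later, formative epiblast, and FGF8 and FGF17 are ligands of the primitive streak and the mesoderm that leaves it. FGF15 acts in the embryo and as an intestinal hormone, and FGFBP1 is a secreted protein that releases FGFs from the matrix.

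Kept cells were barcodes with at least 1000 detected genes and at most 10% mitochondrial counts. These were 1783 of 2008 barcodes in LB and 2705 of 3111 in LBPXRS. They held 45490517 and 51832444 unique molecular identifiers (UMIs, 1 per captured RNA molecule), with medians of 25418 and 19058 per cell. Pluripotency genes, the defining markers of the labelled cell type, were detected in both libraries: Pou5f1 stood at 719 and 990 CPM (UMIs of a gene per 1000000 UMIs of the library), Sox2 at 123 and 232, and Nanog at 75.2 and 177, LB before LBPXRS. The kept cells of the libraries shared 8 barcode sequences. The libraries also differed in ways that the media do not describe. Genes on the Y chromosome gave 2872 UMIs in LB and 1 in LBPXRS, and the median log2 ratio of LBPXRS over LB was -0.59 on chromosome 8 and -0.55 on chromosome 11, against -0.14 over all genes tested. The part of these differences in the results below was not tested, except for the chromosome medians, which were taken off for Fgfr1, the only member on either chromosome, and for the pathway lists.

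Promoter sequences of 6 of the 10 members were found in the RefSeq table of mouse build GRCm38.p6, and those of the 2 ligand genes among them are shown because they moved in opposite directions: Fgf4 was higher in LBPXRS, and Fgf5 was nearly absent there. Each line gives the 250 bases before the annotated start on the forward strand, with chr7:144861136-144861385 for Fgf4 and chr5:98253934-98254183 for Fgf5. Capitals mark GGGCGG (or CCGCCC, the same letters on the other strand), TATAAA and TATATA.
Fgf4: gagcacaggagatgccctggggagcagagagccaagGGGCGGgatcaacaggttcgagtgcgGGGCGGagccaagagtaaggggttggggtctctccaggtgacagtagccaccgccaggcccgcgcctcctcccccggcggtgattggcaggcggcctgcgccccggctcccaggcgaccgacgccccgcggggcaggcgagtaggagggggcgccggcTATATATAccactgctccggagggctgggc
Fgf5: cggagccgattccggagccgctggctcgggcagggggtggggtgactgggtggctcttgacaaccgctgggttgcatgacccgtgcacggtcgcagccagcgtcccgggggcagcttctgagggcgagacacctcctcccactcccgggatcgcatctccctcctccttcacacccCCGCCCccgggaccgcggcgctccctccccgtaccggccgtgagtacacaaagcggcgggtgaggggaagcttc

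Both stretches were rich in G and C, at 71.2% for Fgf4 and 70.8% for Fgf5, against a median of 52.4% over 32851 mouse promoters of this length. The Fgf4 stretch held 2 matches of GGGCGG and 2 overlapping matches of TATATA, and the Fgf5 stretch held 1 match of GGGCGG, on the other strand. Neither held TATAAA. Over all promoters, counting both strands, 32.7% held GGGCGG, 12.4% held TATAAA and 5.25% held TATATA. The letters CTTTGAT (bound by TCF and LEF factors), CCGGAAGT (ETS), ATTTGCAT (octamer) and ACAATGG (SOX) had no match in either stretch, which says only that these letters are not in these windows. In the GENCODE annotation of the same build, Fgf4 lies on chromosome 7 from 144847367 to 144865243 and Fgf15 from 144896531 to 144900953, neighbours on the forward strand. The annotations differ on where Fgf4 begins: the RefSeq start used for the stretch shown lies 14019 bases downstream of the GENCODE start, inside the GENCODE gene. For Fgf5 both give the same start. The other ligand genes lie on chromosomes 5 (Fgf5), 14 (Fgf17) and 19 (Fgf8).

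The ligands changed places between the 2 libraries. Fgf8 and Fgf5 were present in LB and close to absent in LBPXRS, Fgf15 was lower in LBPXRS, and Fgf4 was higher there. In sums over all kept cells, fewer cells with a transcript and fewer transcripts per cell cannot be told apart; shares of cells follow further below. Of the 10 members, 9 had a mean CPM of at least 1 over both libraries. Among these 9, 5 were at least 2-fold lower in LBPXRS on the scale log2((CPM + 1)/(CPM + 1)) and 2 were at least 2-fold higher. Of these 7, Fgf5, Fgf8, Fgfr2, Fgfr4 and Fgfbp1 reached the minimum only through the library where they were high. They so had to differ in that direction, though not by 2-fold, and the counts are a description and no support. Over all 12618 genes that reached this mean, 11.6% were lower and 8.53% higher by the same rule. The member that missed the minimum, Fgfr3, is given by its counts.

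Fgf4, the ligand of the naive epiblast, gave 1798 UMIs or 39.5 CPM (95% Poisson interval 37.7 to 41.4) in LB and 10629 UMIs or 205 CPM (201 to 209) in LBPXRS. LBPXRS was the high library, by 5.19-fold (4.93 to 5.46), a log2 ratio of 2.35. Across all genes tested, 0.943% had a higher ratio.

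Fgf8, a ligand of the streak, gave 5148 UMIs or 113 CPM (110 to 116) in LB and 38 UMIs or 0.733 CPM (0.519 to 1.01) in LBPXRS. LB was the high library by 154-fold (112 to 218). With a pseudocount of 1 the log2 ratio was -6.04, and 0.0396% of the genes tested had a lower one. Fgf5, the formative ligand, gave 233 UMIs (5.12 CPM, 4.49 to 5.82) in LB and 1 UMI in LBPXRS. The ratio of LB to LBPXRS was 265, with an interval of 47.2 to 10530 that a single UMI leaves wide.

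Fgf15 gave 341 UMIs (7.50 CPM, 6.72 to 8.34) in LB and 75 UMIs (1.45 CPM, 1.14 to 1.81) in LBPXRS, a log2 ratio of -1.80. Its gene overlaps 2 annotated genes on the opposite strand, and the sources used here do not say whether counting used strand. Fgf17 gave 1029 UMIs (22.6 CPM) in LB and 661 UMIs (12.8 CPM) in LBPXRS. Its log2 ratio of -0.78 was within 2-fold and stood far from that of Fgf8.

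The total of the 5 ligand genes differed little beside these opposite moves, at 188 CPM (184 to 192) in LB and 220 CPM (216 to 224) in LBPXRS, while its makeup turned over. A UMI of 3′ chemistry counts a molecule whatever its length, so no scaling by length was applied. In LB, Fgf8 gave 60.2% of the ligand UMIs (exact binomial interval 59.2 to 61.3), Fgf4 21.0%, Fgf17 12.0%, Fgf15 3.99% and Fgf5 2.73%. In LBPXRS, Fgf4 gave 93.2% (92.7 to 93.7) and Fgf17 5.80%, and Fgf8 gave 0.333%.

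Among the receptors, Fgfr1 was the main transcript in both libraries and 2 of the others moved in opposite directions. Fgfr1 gave 2240 UMIs (49.2 CPM, 47.2 to 51.3) in LB and 1297 UMIs (25.02 CPM, 23.7 to 26.4) in LBPXRS. Its log2 ratio of -0.95 lay within 2-fold. Fgfr1 is on chromosome 8, and less the median of that chromosome its ratio was -0.36. Fgfr2 gave 135 UMIs (2.97 CPM) in LB and 48 (0.926 CPM) in LBPXRS, a log2 ratio of -1.04 that became -0.95, within 2-fold, with the scaling factors of edgeR's TMM. The annotated span of Fgfr2 covers 2960900 bases with 69 other genes inside, so its counts are uncertain where the authors' annotation used this span. Fgfr3 gave 31 and 9 UMIs, under the minimum in both libraries. Fgfr4 gave 27 UMIs (0.594 CPM, 0.391 to 0.864) in LB and 122 (2.35 CPM, 1.95 to 2.81) in LBPXRS, which was the high library by 3.97-fold (2.597 to 6.26). On the log2 scale the ratio of Fgfr4 was 1.07, and it became 0.98 when barcodes under 0.5% mitochondrial counts were left out (32 in LB and 168 in LBPXRS).

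The sum of the receptor genes was 53.5 CPM (51.4 to 55.7) in LB and 28.5 CPM (27.0 to 30.0) in LBPXRS. Fgfr1 gave 92.1% of the receptor UMIs in LB and 87.9% in LBPXRS. The share of Fgfr4 was 1.11% (0.733 to 1.61) in LB and 8.27% (6.91 to 9.79) in LBPXRS. Fgfbp1, the carrier, gave 449 UMIs (9.87 CPM, 8.98 to 10.8) in LB and 28 UMIs (0.540 CPM, 0.359 to 0.781) in LBPXRS. LB was the high library for the carrier by 18.3-fold (12.5 to 27.8), a log2 ratio of -2.82.

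**Figure D1:**
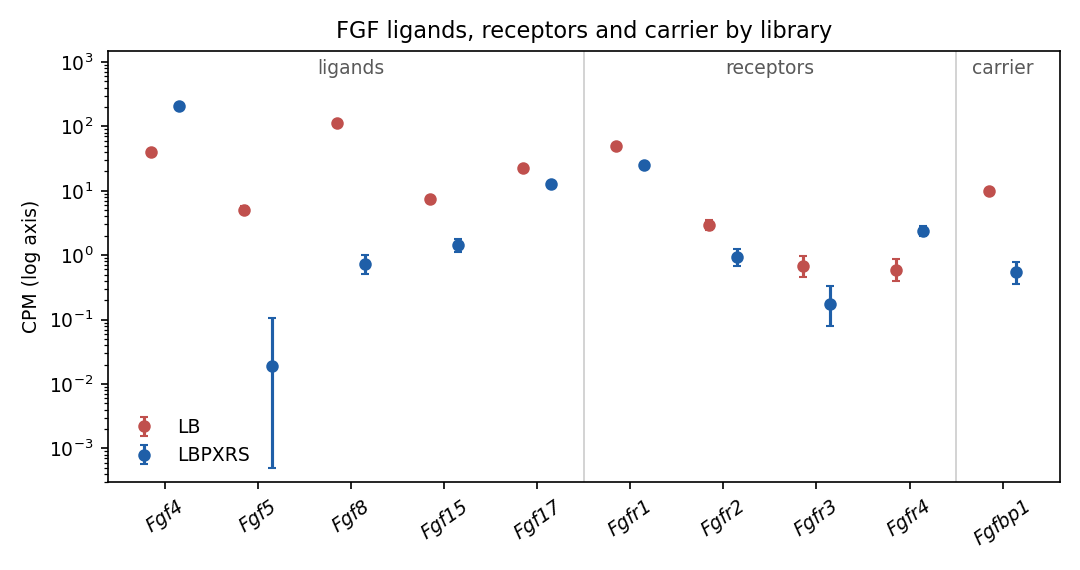
CPM (log axis) of the 10 members in the summed kept cells of LB and LBPXRS, with 95% Poisson intervals for counting error as bars, 1 library per point. Fgf4 stands at 39.5 in LB and 205 in LBPXRS, Fgf8 at 113 and 0.733.

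The members also differed in how their molecules were spread over cells. In LB, Fgf8 was detected in 642 of 1783 cells, up to 59 UMIs in a cell, and 187 cells held at least 10. The 179 cells with the most Fgf8 (10% of cells) held 67.7% of its UMIs, and 107 cells held 50% of them. For Fgf4 the top 10% of cells held 49.1% of the UMIs in LB and 24.2% in LBPXRS, a share that falls with the level itself, so the libraries are not compared by it. In LBPXRS, 2478 of 2705 cells had at least 1 UMI of Fgf4 and the highest cell had 17. All 38 Fgf8 UMIs of LBPXRS lay in different cells. For Fgfbp1 in LB, 40 of the 216 cells that had it held 50% of its 449 UMIs. Fgfr1 in LB was found in 1018 cells, 507 of them with a single UMI.

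**Figure D2:**
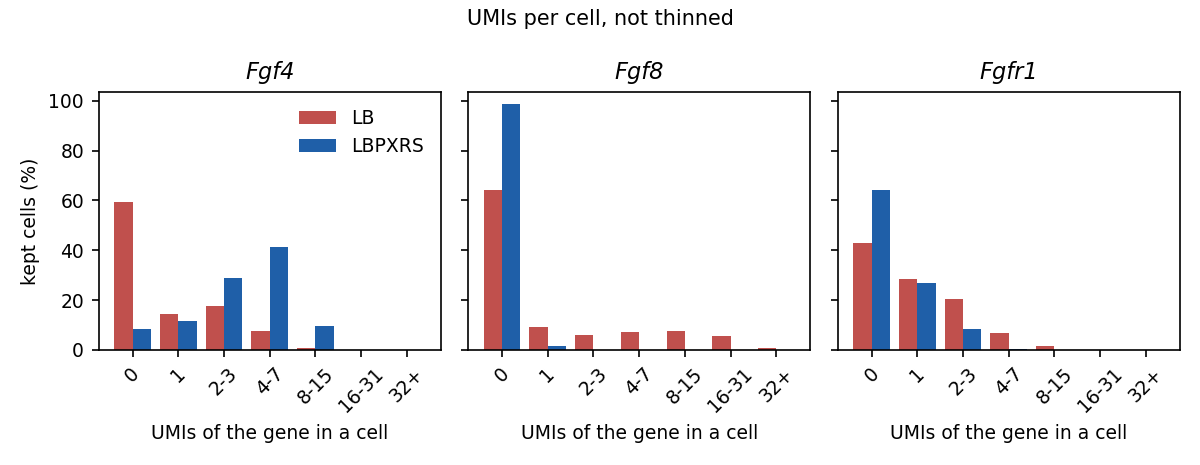
Percent of kept cells (vertical axis) by the number of UMIs of Fgf4, Fgf8 and Fgfr1 in a cell (horizontal axis, binned), without thinning, for LB and LBPXRS. Fgf8 reached 59 UMIs in an LB cell and 1 in LBPXRS, and Fgf4 was detected in 2478 of 2705 LBPXRS cells.

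Shares of cells were compared after drawing 5000 UMIs from every cell (thinning), so 50 LB and 84 LBPXRS cells of lower depth dropped out and 1733 and 2621 remained. At that depth Fgf4 was detected in 16.4% of LB cells (14.7 to 18.2, exact binomial) and in 63.8% of the LBPXRS library (62.0 to 65.7). On all UMIs the shares were 40.5% and 91.6%. Fgf8 was detected in 23.0% (21.1 to 25.1) of thinned LB cells and 0.229% (0.0841 to 0.498) of LBPXRS cells, against 36.0% and 1.40% without thinning. Fgf5 was detected in 2.08% of LB cells and in 0 of 2621 LBPXRS cells. At this depth a count of 0 limits the cells with a UMI, not those with the transcript, to 0.114% by 3 counts, with an exact upper limit of 0.141%. Fgfr1 was detected in 19.7% (17.8 to 21.6) of LB cells and 12.2% (10.9 to 13.5) in LBPXRS.

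The LB library was then split by marker genes. A cell was assigned to a list when, after thinning, it held UMIs of at least 2 of the 6 genes of that list. No FGF gene is in a list, lists can share cells, and a listed cell is only a cell with those transcripts. The naive list (Klf2, Klf4, Tbx3, Tfcp2l1, Nr0b1, Esrrb) took 501 of 1733 cells. The formative list (Dnmt3b, Otx2, Pou3f1, Zic2, Zic5, Grhl2) took 260, and the streak list (T, Eomes, Mixl1, Evx1, Wnt3, Cdx1) took 204. The Mesp1 list of nascent mesoderm (Mesp1, Mesp2, Lhx1, Snai1, Tbx6, Msgn1) took 79. The Hand1 list of lateral and extraembryonic mesoderm (Hand1, Foxf1, Msx2, Tbx20, Snai2, Pitx1) took 117. Lists of trophoblast, endoderm, neural and fibroblast genes took 12, 4, 1 and 1 LB cells and are not described. Of the 79 Mesp1 list cells, 35 were also streak list cells, and 708 cells (40.9%) were on no list. In LBPXRS, 2110 of 2621 cells were on the naive list and 0 on the streak, Mesp1 or Hand1 lists.

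Fgf4 was highest in naive list cells and was low in each of the 3 mesoderm-related sets. It gave 967 UMIs or 72.95 CPM (68.4 to 77.7) in naive list cells and 25.7 CPM (24.0 to 27.5) in all other LB cells, 2.84-fold higher (2.58 to 3.12). The log2 ratio of 1.47 became 2.47 with lists from unthinned counts and 1.17 with 3 list genes required. In formative list cells Fgf4 stood at 38.3 CPM (33.9 to 43.1), against 39.8 CPM in the others. In streak, Mesp1 and Hand1 list cells it gave 15, 7 and 9 UMIs, or 3.01, 4.13 and 2.91 CPM, and the intervals of these 3 levels overlapped. The share of cells with a UMI was 31.5% on the naive list and 1.47% on the streak list. Naive list cells held 54.0% of the Fgf4 UMIs, and cells on no list held 34.8%, at 33.7 CPM.

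Fgf8 was lowest in the naive list cells, where Fgf4 was highest. It stood at 415 CPM (385 to 447) in Mesp1 list cells and 378 CPM (361 to 396) in streak list cells, levels whose intervals overlapped. Hand1 list cells had 72.8 CPM (63.6 to 83.0) and formative list cells 69.6 CPM (63.7 to 75.9), again overlapping, and naive list cells had 8.15 CPM (6.68 to 9.84). The direction in Hand1 list cells was not settled: the log2 ratio over other LB cells was -0.66, but 0.37 with another thinning seed, 0.36 with lists from unthinned counts and -1.06 without cells on several lists. Of the 6 endoderm list genes, Gata6 was at 15.9 CPM in Mesp1, 8.84 in streak and 16.8 in Hand1 list cells, against 3.74 in LB as a whole. Pdgfra was at 24.8, 7.03 and 6.15 CPM in these sets, against 2.37. In Mesp1 list cells 4 of the 6 were higher than in LB as a whole, and Sox7 and Foxa2 gave 0 UMIs. At equal depth, 69.6% of Mesp1 list cells, 58.3% of streak list cells and 2.79% of naive list cells had a UMI of Fgf8. The streak list gene T was also read in naive list cells, at 7.997 CPM, and the part of RNA shed by other cells in these low levels was not tested. Cells on no list held 44.6% of the Fgf8 UMIs, at 123 CPM, so the lists do not hold all cells with the transcript.

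The other ligands each had a different distribution. Fgf5 was highest in formative list cells, at 16.9 CPM (14.0 to 20.1) against 2.87 CPM (2.35 to 3.46) in other cells. Next came streak list cells, with 42 UMIs or 8.44 CPM (6.08 to 11.4) against 4.71 in other cells. It gave 6 UMIs in naive, 4 in Mesp1 and 1 in Hand1 list cells. Fgf15 stood at 22.7 CPM (17.7 to 28.6) in Hand1 list cells against 6.34 in other cells, a log2 ratio of 1.69 that was 0.967, within 2-fold, with another thinning seed. It was at 13.5 CPM (10.9 to 16.4) in formative list cells, where its log2 ratio of 0.98 was just within 2-fold. Fgf17 varied least among the ligands: it stood at 27.1, 25.8 and 24.1 CPM in naive, formative and streak list cells, with overlapping intervals, and at 11.8 and 9.71 CPM in Mesp1 and Hand1 list cells.

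Fgfr1 and Fgfr2 were at their highest in Hand1 list cells, while Fgfr4 gave too few UMIs to rank the sets. Fgfr1 stood at 116 CPM (104 to 128) there against 44.4 CPM in other LB cells, 2.601-fold higher (2.32 to 2.91). It was at 76.6 CPM (69.1 to 84.6) in streak list cells, 52.6 CPM (42.2 to 64.7) in Mesp1 list cells, 49.8 CPM (44.8 to 55.2) in formative list cells and 27.5 CPM (24.8 to 30.5) in naive list cells. In that order the intervals of Mesp1 and formative list cells overlapped and the other neighbours were apart. Fgfr2 gave 41 UMIs or 13.3 CPM (9.52 to 18.0) in Hand1 list cells against 2.20 CPM in others, and 15 UMIs or 8.86 CPM (4.96 to 14.6) in Mesp1 list cells, an interval that overlaps the former. Fgfr3 gave 8 UMIs in Hand1 list cells, 2.59 CPM (1.12 to 5.10) against 0.545, an interval that overlaps those of the formative, streak and Mesp1 list cells. Its log2 ratio of 1.22 became 0.82 without cells on several lists. Of the 26 Fgfr4 UMIs in cells of at least 5000 UMIs, 14 lay in naive list cells and 0 in streak, Mesp1 or Hand1 list cells. The upper limits in the last 3 sets were 0.741, 2.18 and 1.19 CPM. These overlap the interval of naive list cells (0.577 to 1.77), so Fgfr4 is not shown to differ between the sets. Markers of other cell types moved with several sets, and their part in the levels of the members was not tested. The 6 fibroblast list genes summed to 58.3 CPM in Hand1 list cells against 14.1 in LB as a whole, with 3 higher: Col1a1 at 53.7 against 7.80, Col1a2 at 3.56 against 1.01 and Col3a1 with 1 UMI. Thy1 was at 0.647 against 5.25, and Dcn and Lum gave 0 UMIs. The 6 endoderm list genes summed to 33.7 CPM against 10.2, with Gata6 (16.8 against 3.74), Gata4 (10.4 against 2.66) and Pdgfra (6.15 against 2.37) higher, Sox17 lower (0.324 against 0.791) and Sox7 and Foxa2 at 0. The 6 trophoblast list genes summed to 40.8 CPM against 20.2, with Gata3 (24.6 against 5.23), Tfap2a (6.80 against 3.89) and Gata2 (2.91 against 1.69) higher, Ascl2 (2.27 against 3.34) and Krt7 (4.21 against 6.07) lower and Elf5 at 0. The neural list summed to 20.07 CPM against 18.3, with Sox1, Olig3, Neurog2 and Sox21 at 0. The endoderm list summed to 51.4 CPM in Mesp1 list cells, with 4 of 6 genes higher than in LB as a whole, and to 27.1 CPM in streak list cells, with 6 of 6 higher, against 6.45 and 1.96 in formative and naive list cells. Over these 4 sets the trophoblast list summed to 12.3 to 28.5 CPM, the neural list to 6.41 to 35.8 CPM and the fibroblast list to 4.72 to 11.7 CPM. The highest sums were those of formative list cells. There 4 of 6 neural list genes were higher than in LB as a whole, with Nes at 34.2 against 16.9 CPM and Olig3 at 0. Of the trophoblast list 3 of 6 were higher, with Krt7 at 12.1 against 6.07 CPM and Elf5 at 0. The part of these markers in the Fgf5, Fgf15 and Fgfbp1 levels of formative list cells was not tested.

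Fgfbp1 was at 16.7 CPM (13.9 to 19.99) in formative list cells against 8.57 in others, a log2 ratio of 0.89 that was -0.63 when 3 list genes were required and 1.55 with lists from unthinned counts. It gave 1 UMI in Mesp1 list cells. Counted by set, naive list cells had 1 of 8 tested members at least 2-fold higher and 5 lower, where 3.73% and 10.3% of all genes tested were. Of the 5, Fgf15, Fgfr1 and Fgfr2 lay just past the limit, at log2 ratios of -1.06, -1.05 and -1.14, and with another thinning seed they stood at -0.76, -0.996 and -0.991, within 2-fold. Formative list cells had 1 higher and 0 lower, against 0.921% and 1.28% of all genes. Streak list cells had 1 and 1 (4.08% and 5.47%), Mesp1 list cells 2 and 2 (6.22% and 9.59%), each of 8 tested, and Hand1 list cells 4 and 3 of 9 tested (7.25% and 8.04%). The ninth there was Fgfr3, which reached the CPM minimum only through its level in Hand1 list cells and so had to differ, and without it the count was 3 and 3 of 8. Likewise Fgf5 in the naive and Hand1 sets and Fgfbp1 in the Mesp1 set passed only through the other LB cells.

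**Figure D3:**
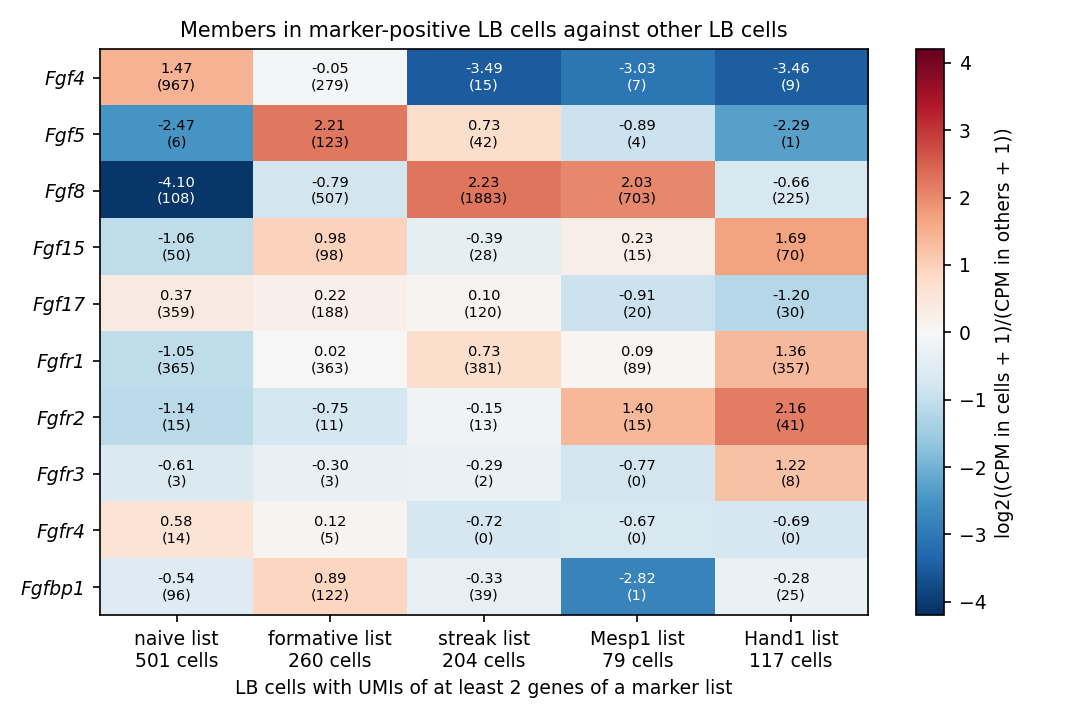
Log2 ratio of CPM + 1 (colour and upper number) of each member in LB cells of 5 marker lists over all other LB cells, with the UMIs in the listed cells in brackets. Fgf4 is highest in naive list cells (1.47), Fgf5 in formative list cells (2.21), and Fgfr2 in Hand1 list cells (2.16). Fgf8 is at 2.23 in streak and 2.03 in Mesp1 list cells, an order that turned with another thinning seed. With lists from unthinned counts, not shown, Fgf8 was at 3.37 in streak list cells. In naive list cells it was at -2.86 with those lists, against -4.10 here.

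Levels were also read along single marker genes. With 0, 1, 2 to 3 and at least 4 UMIs of T in a thinned cell (1423, 113, 102 and 95 cells), Fgf8 stood at 56.1, 269, 411 and 541 CPM. Fgf4 went the other way over these steps, at 46.1, 12.7, 3.59 and 1.33 CPM. Fgfr1 stayed between 47.6 and 59.8 CPM, with overlapping intervals from 1 UMI of T upward.

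Along the same steps of Hand1 (1492, 94, 82 and 65 cells), Fgfr1 stood at 40.9, 87.3, 90.6 and 131 CPM and Fgfr2 at 1.69, 4.24, 8.28 and 22.0 CPM. Fgf8 was highest at 1 UMI of Hand1, at 219 CPM, and lower on both sides, at 106 CPM with 0 UMIs and 91.4 CPM with at least 4. Along Dnmt3b, a formative marker, Fgf5 stood at 2.13, 5.00, 19.6 and 28.6 CPM, the last step holding 47 cells. Along Klf2, a naive marker, Fgf4 stood at 13.8, 56.0, 69.9 and 73.0 CPM while Fgfr1 stood at 68.5, 32.8, 30.4 and 22.9 CPM. Other genes of a list did not always go with it: cells with the naive list gene Tbx3 had 1.25-fold more Fgfr1 (1.09 to 1.42) than cells without it, and for the formative list gene Grhl2 the ratio of Fgf5 was 0.823 (0.371 to 1.59).

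**Figure D4:**
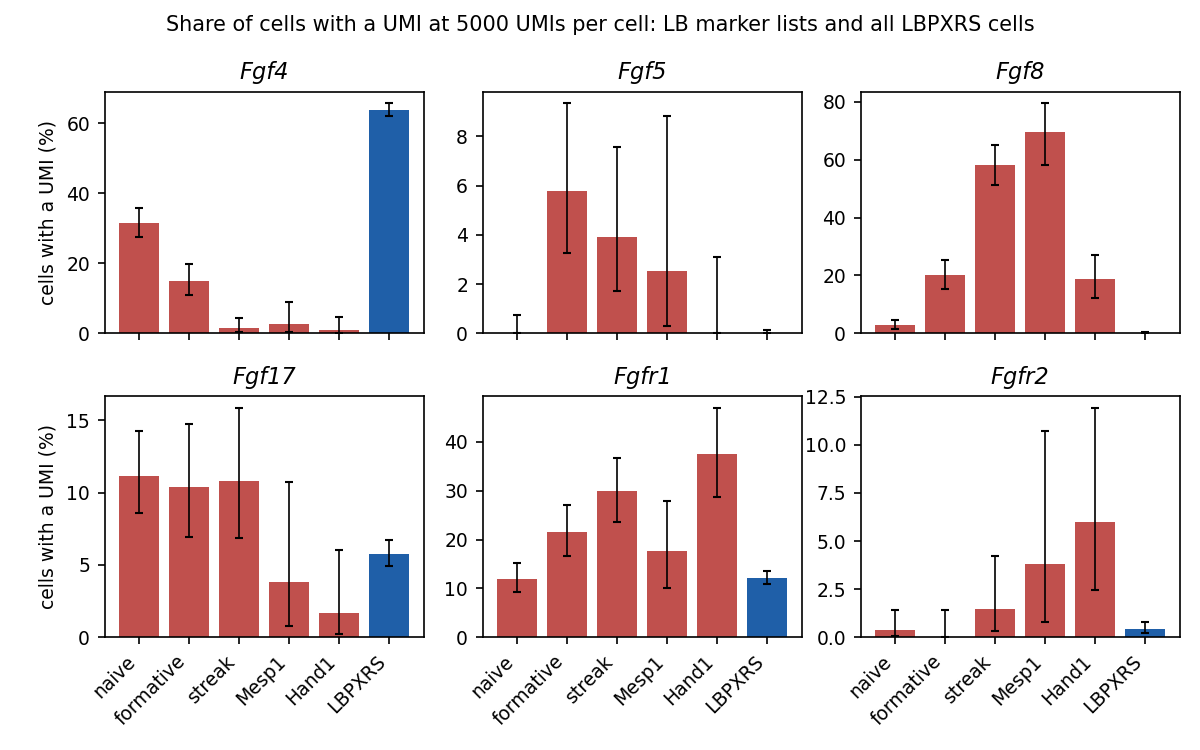
Percent of cells with a UMI of 6 members after thinning to 5000 UMIs per cell, in the 5 LB marker list sets and in all LBPXRS cells, with exact 95% binomial intervals as bars. Fgf4 was detected in 31.5% of naive list LB cells and 63.8% of LBPXRS cells, and Fgf8 in 58.3% of streak list cells.

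Since most LBPXRS cells were naive list cells, LBPXRS was also set against the naive list cells of LB. Fgf4 was still higher in LBPXRS, by 2.81-fold (2.63 to 3.01), and Fgf8 was lower, with LB naive list cells 11.1-fold higher (7.61 to 16.5). Fgfbp1 was 13.4-fold higher (8.72 to 21.2) and Fgf17 2.12-fold higher (1.86 to 2.42) in LB naive list cells than in LBPXRS. Fgfr1 was at 27.5 CPM in those LB cells and 25.02 CPM in LBPXRS, a ratio of LBPXRS to LB of 0.909 with an interval of 0.808 to 1.02. The other receptors and Fgf15 stood closer than in the whole libraries. Fgfr2 had a ratio of LBPXRS to LB of 0.818 (0.450 to 1.57) against naive list cells and 0.312 against all LB cells. Fgfr4 was 2.23-fold higher (1.28 to 4.197), and its log2 ratio of 0.71 no longer reached 2-fold. Fgf15 had a log2 ratio of -0.96, also within 2-fold. Of 8 members tested here, 3 were at least 2-fold lower in LBPXRS, where 6.5% of all genes were, and 1 was higher, where 9.55% were. Of the 3, Fgf8 and Fgfbp1 reached the minimum only through the LB cells and so had to differ, here and with naive list cells on both sides. With naive list cells on both sides, Fgf4 was 2.90-fold higher in LBPXRS (2.72 to 3.11) and the ratio for Fgfr1 was 0.907. On that comparison 3 of 8 members were lower and 1 was higher, where 6.45% and 9.53% of all genes were.

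Cells with a ligand had a detected receptor about as often as cells without one, at a depth that misses many transcripts. After thinning, 160 of 1733 LB cells (9.23%, 7.91 to 10.7) held UMIs of a ligand and of a receptor, 639 of a ligand only, 207 of a receptor only and 727 of neither. In LBPXRS the numbers were 258 of 2621 (9.84%, 8.73 to 11.0), 1465, 112 and 786. A receptor was thus detected in 160 of 799 LB cells with a ligand (20.02%, 17.3 to 23.0) and in 207 of 934 without one (22.2%, 19.5 to 24.97), intervals that overlapped. In LBPXRS it was detected in 14.97% (13.3 to 16.7) of cells with a ligand and 12.5% (10.4 to 14.8) of cells without. Without thinning, the shares with both were 48.6% in LB and 37.4% in LBPXRS, so these shares follow depth.

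In LB, Fgf4 was detected in 15 of 399 cells with Fgf8 (3.76%, 2.12 to 6.12) and in 269 of 1334 cells without it (20.2%, 18.0 to 22.4). Fgfr1 was detected in 9.15% (6.07 to 13.1) of 284 cells with Fgf4 and in 21.7% (19.6 to 24.0) of cells without it. For cells with and without Fgf8 the shares with Fgfr1 were 23.1% (19.0 to 27.5) and 18.7% (16.6 to 20.9), with overlapping intervals. Fgf5 and Fgf8 were often found together: 21 of the 36 cells with Fgf5 also had Fgf8 (58.3%, 40.8 to 74.5), against 22.3% (20.3 to 24.3) of cells without Fgf5. In LBPXRS, 12.9% (11.3 to 14.6) of cells with Fgf4 and 10.9% (8.96 to 13.0) of cells without it had Fgfr1.

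Over the 1783 kept LB cells, the genes whose levels most resembled a member were ranked by Pearson's r of log-scaled UMIs. The 10949 genes ranked, and the members, were those found in at least 5% of cells. This left out Fgfr3 (1.68% of cells) and Fgfr4 (1.40%). The cells share a library and differ in depth, so r is a description. For Fgf4 the leading genes were the pluripotency genes Zfp42 (r = 0.58) and Dppa5a (0.57), then Chchd10 (0.56), Klf2 (0.53) and Mybl2 (0.53). For Fgf8 they were Psmb8 (0.65), a subunit of the immunoproteasome, T (0.63), Psmb9 (0.58), Psme1 (0.57) and the interferon-induced gene Isg15 (0.57). For Fgf5 they were Pim2 (0.47), Dnmt3b (0.34), Nefl (0.33), Agpat3 (0.27) and Epha1 (0.24).

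For Fgf5, found in 123 cells, and for the members that follow, values of this size in sparse counts are no finding. Fgfr1 was led by the collagen chaperone gene Serpinh1 (0.37), Basp1 (0.35), Peg10 (0.34), Limd2 (0.33) and Rbms1 (0.33), and Fgfbp1 by Sfn (0.35), Ccn2 (0.28), Tnfrsf12a (0.26), S100a6 (0.25) and Crb3 (0.23). Fgfr2 was led by Hand1 (0.28), Pdlim4 (0.23), Stard8 (0.23), Gpc3 (0.22) and Col1a1 (0.22). Fgf15 was led by the ligand gene Fgf3 (0.26), Podxl (0.26), Adgra2 (0.25), Prdm6 (0.25) and Car4 (0.24), and Fgf17 by Tcf15 (0.26) and Pou5f1 (0.22). Between the members ranked, the value farthest from 0 was that of Fgf4 and Fgf8, at -0.35.

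The rest of the pathway was read from 4 lists, each to be set against the 11.6% of all genes tested that were lower in LBPXRS and the 8.53% that were higher. Of 24 other FGF family genes, 7 reached the CPM minimum, and 4 of these were at least 2-fold lower in LBPXRS and 0 higher, with a median log2 ratio of -1.08 against -0.14 over all genes tested. The 4 were the ligand gene Fgf10 (-1.51), the intracellular family member Fgf13 (-1.70), Flrt3 (-1.32), a membrane protein gene, and the carrier gene Fgfbp3 (-1.08). Fgf10 and Flrt3 passed the minimum only through LB and so had to differ. Fgf3, on chromosome 7 as are Fgf4 and Fgf15, was at 6.92 CPM in LB and 6.69 in LBPXRS. Of 20 adaptor and kinase genes from the receptor to ERK, 1 was higher, the adaptor gene Frs3 (1.55), and 0 were lower, with a median of -0.19.

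Of 11 feedback and target genes of ERK, 10 were lower and 0 higher, with a median of -1.82 (11.6% and 8.53% over all genes). Less the median of each gene's chromosome, 8 were lower, where 8.63% of all genes were, and Dusp4 on chromosome 8 (-1.03, then -0.43) and Spry2 on chromosome 14 (-1.04, then -0.90) came within 2-fold. Dusp6, a phosphatase of ERK, went from 18.0 to 0.868 CPM, Spry4, a feedback inhibitor, from 265 to 4 UMIs, and the ETS factor gene Etv4 from 30.4 to 4.48 CPM. The other 5 were Spry1 (-1.82), Spred1 (-2.37), Spred2 (-1.68), Etv1 (-1.89) and Il17rd (-1.71). Etv5 was the exception, at 62.1 and 38.5 CPM. Dusp6, Spry4 and Etv1 passed the minimum only through LB and so had to differ. Within LB, all 11 were tested in each set. In naive list cells 3 were lower (Dusp4, Dusp6 and Spred1) and 0 higher, where 10.3% and 3.73% of all genes were. In formative list cells 0 were past 2-fold. In streak list cells 2 were higher (Dusp4 and Dusp6) and 1 lower (Etv5), where 4.08% and 5.47% of all genes were. In Mesp1 list cells 3 were higher (Dusp4, Spry2 and Spred1) and 1 lower (Etv5), against 6.22% and 9.59%. In Hand1 list cells 1 was higher (Spred1) and 1 lower (Etv5), against 7.25% and 8.04%.

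Of 20 heparan sulfate genes, 4 were higher in LBPXRS and 6 lower, with a median of -0.28 (8.53% and 11.6% over all genes). The higher genes were the sulfotransferase gene Hs6st1 (1.49) and the syndecan core protein genes Sdc2 (1.57), Sdc3 (1.31) and Sdc4 (1.28). The lower genes included the glypican gene Gpc3, from 45.9 to 4.01 CPM, the sulfatase gene Sulf1, from 13.5 to 0.695 CPM, and the sulfotransferase gene Hs3st3b1 (-1.67). Hs6st2 went from 131 UMIs to 0, at least 49.8-fold lower against a floor of 3 UMIs in LBPXRS. Gpc1 (-1.16) and Gpc6 (-1.06) completed the 6, and Gpc6 came to -0.91, within 2-fold, less the median of its chromosome. Hs6st2, Hs3st3b1 and Sulf1 passed the minimum only through LB and so had to differ. 

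The heparan sulfate list was also counted in each LB set, with the shares of all genes higher and lower in that set beside it. In naive list cells 1 of 20 was higher (Sdc4), against 3.73%. The lower genes there were 8, against 10.3%: Hs6st2, Hs3st3b1, Sulf1, Sdc1, Sdc2, Gpc1, Gpc3 and Gpc6. In formative list cells 0 were higher and 2 lower (Hs3st3b1 and Gpc3), against 0.921% and 1.28%. In streak list cells 4 of 19 were higher (Extl3, Hs3st3b1, Sulf1 and Gpc3) and 1 lower (Sdc4), against 4.08% and 5.47%. In Mesp1 list cells 6 of 19 were higher (Hs3st3b1, Sulf1, Sdc2, Gpc1, Gpc3 and Gpc6) and 2 lower (Glce and Sdc4), against 6.22% and 9.59%. In Hand1 list cells 5 of 20 were higher (Hs6st2, Hs3st3b1, Sdc1, Gpc3 and Gpc6) and 1 lower (Sdc4), against 7.25% and 8.04%. Hs6st2 and Gpc1 in the naive set passed the minimum only through the other LB cells.

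Of the 24 other FGF genes, 7 were tested in naive list cells, and 4 were lower (Fgf3, Fgf13, Flrt3 and Fgfbp3) and 0 higher, where 10.3% and 3.73% of all genes were. In formative list cells 1 of 7 was higher (Fgfbp3) and 1 lower (Fgf3), against 0.921% and 1.28%. In streak list cells 2 of 8 were higher (Fgf10 and Fgf18) and 0 lower, against 4.08% and 5.47%, and Fgf18 passed the minimum only through the listed cells. In Mesp1 list cells 2 of 8 were higher (Fgf3 and Fgf10) and 1 lower (Fgfbp3), against 6.22% and 9.59%. In Hand1 list cells 2 of 6 were higher (Fgf3 and Flrt3) and 0 lower, against 7.25% and 8.04%. Of the 20 adaptor and kinase genes, all tested in each set and read beside the same shares, Gab1 was higher in naive and lower in streak, Mesp1 and Hand1 list cells, and Frs3 was lower in the last 2.

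**Figure D5:**
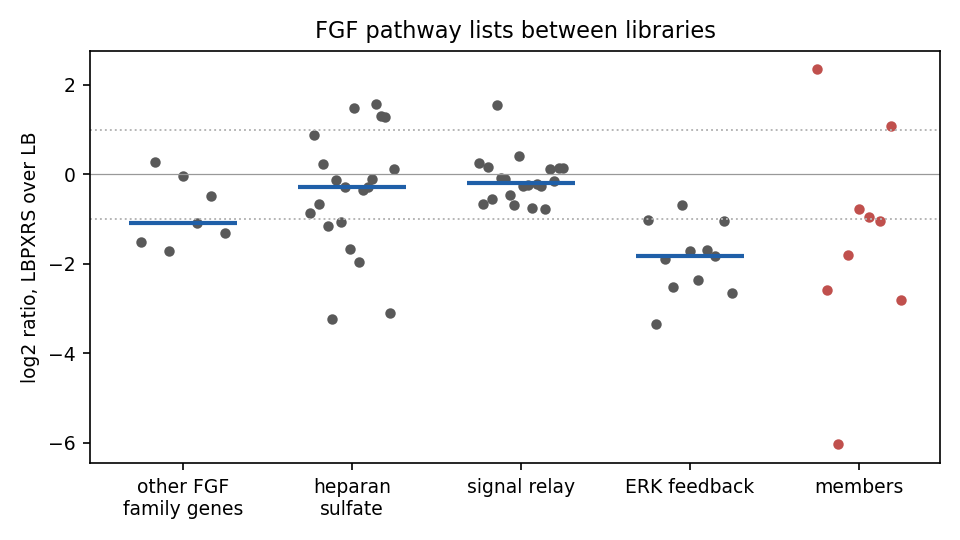
Log2 ratio of CPM + 1 in LBPXRS over LB for genes above the CPM minimum in 4 FGF pathway lists and for the members, a point per gene, with list medians as blue bars and 2-fold limits as dotted lines. The ERK feedback list has a median of -1.82 and 10 of 11 genes below the lower limit.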

How the data were processed

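The authors deposited UMI counts per gene and barcode for both libraries, and Cell Ranger 4.0.0 produced them, per the file headers and the submitters' processing notes, which also name the build mm10. The gene annotation, strand use and cell calling settings are not given in the sources used here. From these counts, UMIs of the kept cells were summed and scaled to CPM, and ratios used a pseudocount of 1. A member was counted as higher or lower at 2-fold or more with a mean CPM of at least 1. Intervals are exact (Poisson, Clopper-Pearson, conditional binomial) at 95%, with a floor of 3 counts for genes at 0.

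Cells were thinned to 5000 UMIs with seed 1 before shares and marker lists were computed. Marker list sets under 50 cells were not described, while steps along a single marker had no such limit. Scrublet in scanpy 1.11.5 marked 12 LB (0.673%) and 14 LBPXRS cells (0.518%) on a single thread; the number marked in LBPXRS changed with the number of threads, and so few were marked that doublets may have been missed. They were kept and left out as an alternative. Scripts used Python 3.11.15, numpy 2.4.6 and scipy 1.17.1, and edgeR 4.0.16 gave the TMM factors. The ratio was tested on simulated data with known changes. Identifiers were matched to GENCODE for coordinates (32158 of 32285 found), and promoters were read from RefSeq.

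The members, gene lists and rules were chosen with earlier results of these data known. All members are named, as are list genes past 2-fold. For members found in at least 5% of LB cells, the 5 genes most like them over LB cells are named where r is at least 0.2.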

Additional observations from a re-analysis of the deposited data

How the results depend on the processing

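With 1 library per condition, nothing here measures the spread between cultures, and at 5000 UMIs per cell a gene of a few CPM is missed in most cells. No paired analysis was possible because each condition had 1 library. No member ratio past 2-fold under the reported settings changed sign under an alternative run. Ratios within 2-fold did, on the log2 scale: Fgf8 in Hand1 list cells (-0.66; -1.06 to 0.37), Fgfbp1 in formative (0.89; -0.63 to 1.55) and Hand1 list cells (-0.28; -1.81 to 0.51) and Fgf5 in streak list cells (0.73; -0.17 to 1.65), among others. The count of 5 members lower in LBPXRS became 2 at a mean CPM of at least 5 and 3 against naive list LB cells. The count of 2 higher became 1 in both of these and 1 without barcodes under 0.5% mitochondrial counts. TMM moved the median of all genes from -0.14 to 0.0031 and left 4 members lower and 2 higher. Less the chromosome median, ERK feedback genes lower in LBPXRS went from 10 to 8 and heparan sulfate genes from 6 to 5, an alternative added after seeing the data.

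For naive list cells, the 5 lower members became 3 with 3 list genes, 2 with lists from unthinned counts and 2 with another seed. For formative list cells, the 1 higher member became 2 with 3 list genes, with unthinned lists, without cells on several lists, with a pseudocount of 0.1 and without cells marked by Scrublet. The 0 lower became 1 with 3 list genes, unthinned lists, another seed and a pseudocount of 0.1. For streak list cells, 1 higher became 2 with unthinned lists and 1 lower became 2 without cells on several lists. For Hand1 list cells, 3 lower became 5 without cells on several lists. With 3 list genes, streak, Mesp1 and Hand1 sets had 49, 28 and 22 cells, and Mesp1 cells on no other list were 36, so these gave no value. Cells with a ligand and a receptor, 9.23% of LB and 9.84% of LBPXRS, became 22.4% and 21.0% at 10000 UMIs and 48.6% and 37.4% without thinning. Of 84 counts of members under alternatives, 64 stayed within 1.5 times and 20 did not. The causes of these moves were not tested.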
